A study of Rattus norvegicus with 6 samples.

Results

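Integrins are receptors made of 1 alpha and 1 beta chain that span the cell membrane and tie the cell to the extracellular matrix. The genes examined were the 10 that encode receptors for laminin and collagen, picked by their gene names from the 30957 genes of the deposited table. They comprise the collagen-binding alpha chains Itga1, Itga2, Itga10 and Itga11, the laminin-binding alpha chains Itga3, Itga6 and Itga7, the beta chains Itgb1 and Itgb4, and Dag1, which encodes dystroglycan. Each name matched 1 row. All 7 alpha chains pair with the Itgb1 product, and the Itga6 product also pairs with that of Itgb4. In peripheral nerve, Schwann cells wrap themselves in a basal lamina rich in laminin, and contact with it through α6β1, α7β1, α6β4 and dystroglycan is known to take part in axon sorting and myelination. Collagen receptors of the integrin family carry an inserted domain in the alpha chain that binds triple-helical collagen.

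The 6 RNA-seq libraries came from sciatic nerves of Sprague Dawley rats, 3 labelled as injured and 3 as normal tissue, numbered 1 to 3 in each group. By the methods the rats were adult males, the injury was a forceps crush of 1 sciatic nerve, and the pieces taken 4 days postinjury (dpi) were the proximal stump of the crushed nerve and the uninjured nerve of the opposite side. The labels carry no time point and do not say whether libraries of the same number came from the same rat. The test of differences below therefore did not pair them, and a block on the number was fitted only as an alternative. The spread between libraries may also be partly technical. The methods and the labels also differ on the extraction kit, on the side of the lesion and on a digestion with RNase R, an enzyme that removes linear RNA, which the labels leave out.

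The total count per library lay between 24844371 and 27139360. Defining transcripts of nerve tissue were at or near 0 in all 6 libraries. Of 9 Schwann cell markers, 6 had at most 10 counts in every library, among them the myelin gene Mbp and the lineage factor Sox10 (at most 1 count each). Of 7 macrophage markers, 5 had at most 10 counts in every library, and Ptprc, Cd163 and Adgre1 were at 0 throughout. The proliferation gene Mki67 lay between 142.4 and 173.6 FPKM (counts per kilobase of a length assigned to the gene, scaled by the authors to the library's total). The words crushed and intact therefore stand here for the label of a library, and every direction given rests on those labels.

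Levels differed widely between the receptor genes, as the plot of levels by library shows. Itgb1 was the highest in both groups, with 450.8 ± 24.7 FPKM (SD, n = 3) in intact and 514.6 ± 5.84 FPKM in crushed libraries. Itga3, the α3 chain of the laminin-332 and laminin-511 receptor, and Itga6 followed, with intact means of 314.7 and 129.1 FPKM. Dag1 was at 79.7 ± 3.78 FPKM, Itga7 at 18.8 ± 0.111 and Itgb4 at 16.7 ± 1.38 in intact libraries (SD, n = 3 each). The collagen-binding chains were all low, with intact means of 1.02 FPKM for Itga1, 0.310 for Itga11, 0.219 for Itga2 and 0.0674 for Itga10. In each group the ranges of neighbouring genes in this order were separate over the 3 libraries. The order was shared by both groups except that Itga2 stood below Itga11 in intact and above it in crushed libraries.

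**Figure D1:**
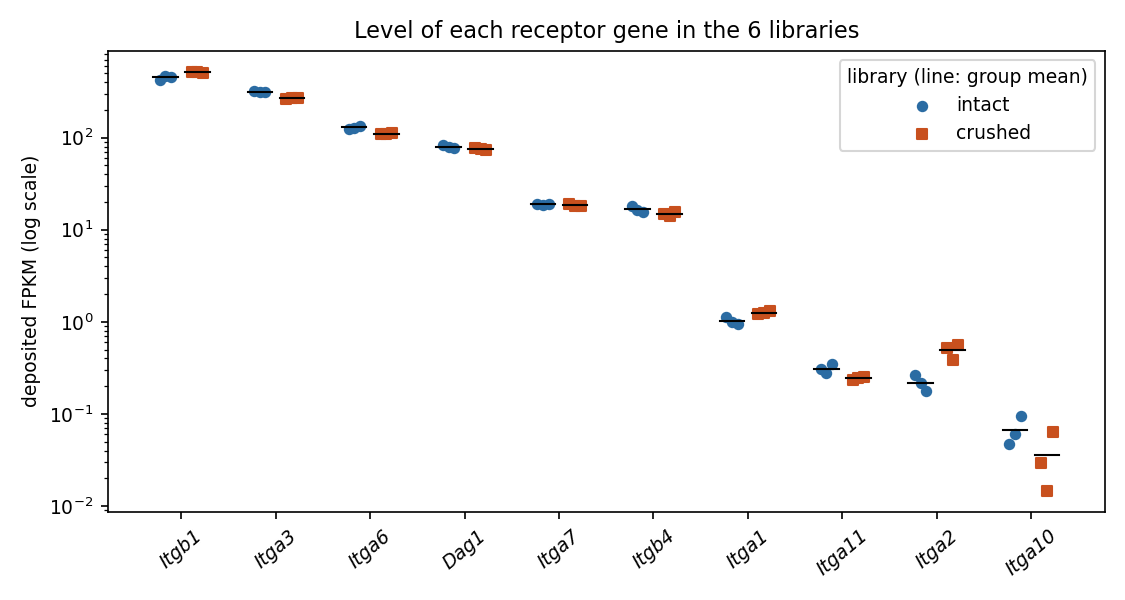
FPKM of the 10 receptor genes (log axis) in the 3 intact (circles) and 3 crushed (squares) libraries, with a line at each group mean, in the order of the intact means. Itgb1 lies highest in both groups, between 422.9 and 520.1 FPKM, the 4 collagen-binding chains lie below 2 FPKM, and only Itga2 and Itga11 exchange places.

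Crushed and intact libraries were compared by the quasi-likelihood test of edgeR, which gives each log2 fold change with its standard error (SE), over the 12393 genes that passed its expression filter, 9 of the 10 receptor genes among them. In crushed libraries Itga3 and Itga6 fell by 16.2% each and Itga2 rose 2.20-fold, while the other 6 genes tested did not reach an adjusted p under 0.05. An adjusted p under 0.05 in the direction of a rise was reached by 1 of the 9 genes, against 1.47% of all genes tested, and in the direction of a fall by 2 of the 9, against 1.65%. At the limits of the study's methods (a change of more than 1 on the log2 scale in either direction, with a p under 0.001 that was taken as unadjusted) only Itga2 passed, against 0.282% of all genes tested. The 3 crushed values lay above the 3 intact values for Itga1, Itga2 and Itgb1, 3 of the 9 genes, against 10.8% of all genes tested. They lay below them for Itga3, Itga6, Itga11 and Itgb4, 4 of the 9, against 12.2%. The median log2 fold change of the 9 genes was -0.0995, and that of all genes tested -0.00174. Over all genes tested, 182 were higher and 205 lower at the adjusted limit, and with limma on log2(FPKM + 0.1) these numbers were 156 and 86. Fewer cells of a type and less RNA per cell cannot be told apart in these bulk libraries.

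**Figure D2:**
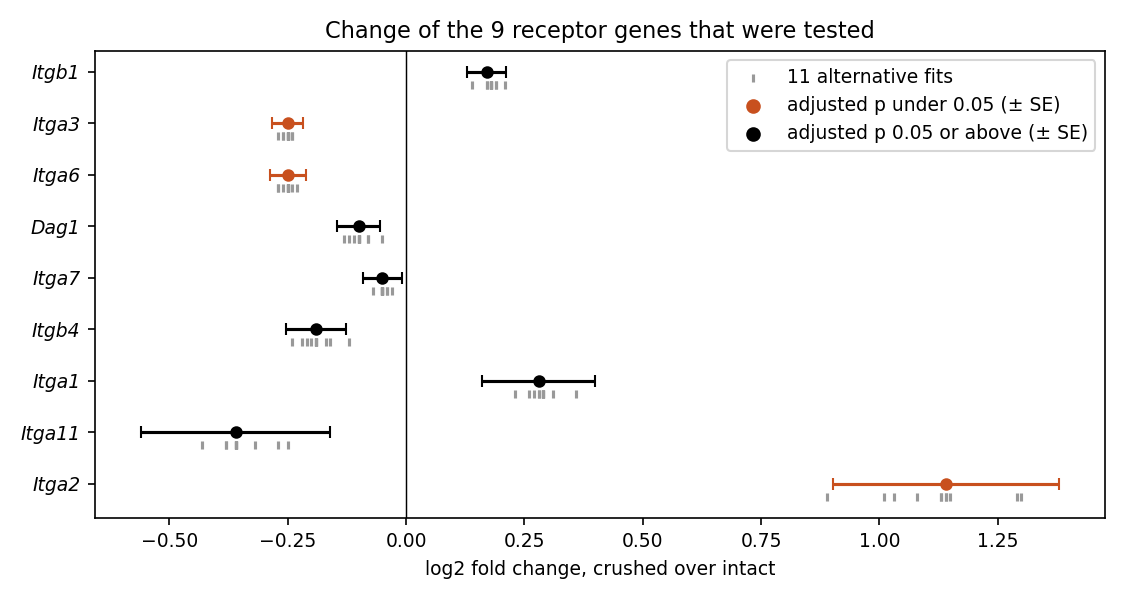
Log2 fold change (crushed over intact, edgeR) of the 9 receptor genes tested, with its standard error, coloured where the adjusted p was under 0.05, and below each point the values from 11 other fits (grey ticks). Itga3 and Itga6 stay between -0.27 and -0.23 in all fits, whereas Itga2 spreads from 0.89 to 1.3.

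Among the laminin-binding chains, Itga3 (ENSRNOG00000004276, chromosome 10 from 82855613 to 82887497 in Rnor_6.0) gave the smallest p of the 9 genes. Its level was 319.2, 315.2 and 309.6 FPKM in intact libraries 1, 2 and 3 and 265.5, 266.8 and 268.2 FPKM in crushed libraries 1, 2 and 3. The crushed libraries lay within 3 FPKM of each other, well below the lowest intact library. The log2 fold change of Itga3 was -0.25 (edgeR, SE 0.0332, Benjamini-Hochberg adjusted p = 0.00167), and the adjusted p lay between 6.05e-07 and 0.0222 over 11 other fits. Itga6 (ENSRNOG00000001518, chromosome 3 from 58443101 to 58515124), the α6 chain shared by α6β1 and α6β4, had 125.4, 127.7 and 134.3 FPKM in intact libraries and 108.3, 109.0 and 111.2 FPKM in crushed libraries. As for Itga3, the groups were separate. The log2 fold change of Itga6 was -0.25 (SE 0.0378, edgeR, adjusted p = 0.00372, 6.18e-06 to 0.0362 over the other fits). Itga7 (ENSRNOG00000007905, chromosome 7 from 3355116 to 3384675), the α7 chain known from muscle and Schwann cells, had 18.8, 18.7 and 18.9 FPKM in intact and 19.0, 17.9 and 18.3 FPKM in crushed libraries, with overlapping groups. Its log2 fold change of -0.05 was about the size of its SE of 0.0415 (edgeR, adjusted p = 0.583).

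As a sum, the smooth muscle and pericyte markers moved in the same direction as Itga3 and Itga6. The 5 genes of that list summed to between 2.91 and 3.35 FPKM in intact and between 2.04 and 2.49 FPKM in crushed libraries, and Pdgfrb, the PDGF receptor β of pericytes and fibroblasts, had a log2 fold change of -0.77 (edgeR, adjusted p = 0.00106). Myh11 (log2 fold change -0.17, edgeR, adjusted p = 0.467) and Des (-0.23, adjusted p = 0.779) of that list did not pass the limit. Of that list 2 of 5 genes had at most 10 counts in every library, and Rgs5 was at 0. The 3 adipocyte markers (0.175 to 0.203 FPKM in intact and 0.0529 to 0.128 FPKM in crushed libraries, summed) and the 4 epithelial markers (0.0257 to 0.0651 and 0.00842 to 0.00969 FPKM) were lower too, all with at most 10 counts in every library and with the epithelial Epcam and Krt14 at 0. The summed levels of the Schwann cell, macrophage, fibroblast, endothelial, skeletal muscle and proliferation lists overlapped between the groups, although the Schwann cell marker Erbb3 (log2 fold change -0.59, edgeR, adjusted p = 0.0222) and the fibroblast markers Col1a1 (-0.69, adjusted p = 0.000662) and Col3a1 (-1.76, adjusted p = 0.0268, 3 to 23 counts) fell. The third fibroblast marker tested, Pdgfra, was at 0.19 (adjusted p = 0.166), and Dcn and Lum were at 0 counts. The part of these markers in the receptor results was not tested.

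The beta chain Itgb1 (ENSRNOG00000010966, chromosome 19 from 61677542 to 61725535), which encodes the common partner of all 7 alpha chains, had 422.9, 470.0 and 459.4 FPKM in intact libraries and 520.1, 515.3 and 508.5 FPKM in crushed libraries. Every crushed library lay above every intact library, and intact library 1 was the lowest of the 6. The log2 fold change of Itgb1 was 0.17 (SE 0.0417), and its adjusted p of 0.0513 in edgeR stood just outside the limit. It was 0.0221 without intact library 1, 0.0461 without intact library 2 and 0.0136 with DESeq2, and the range over 11 other fits was 0.0136 to 0.210. Itgb4 (ENSRNOG00000005580, chromosome 10 from 104523996 to 104561078), the β4 chain of hemidesmosomes and of the outer surface of myelinating Schwann cells, had 18.3, 16.2 and 15.7 FPKM in intact and 15, 14.0 and 15.4 FPKM in crushed libraries. The groups were separate, but only by the small gap between intact library 3 and crushed library 3. Its log2 fold change was -0.19 (SE 0.0629, edgeR, adjusted p = 0.150). Over 776 bases of the table's coordinates Itgb4 overlaps Galk1, a galactokinase gene with between 1977 and 2408 counts per library, and how shared reads were assigned is not given in the sources used here.

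Dag1 (ENSRNOG00000019400, chromosome 8 from 116980497 to 116993193) encodes both chains of dystroglycan, the laminin receptor of the dystrophin complex. It had 83.9, 78.6 and 76.6 FPKM in intact and 77.5, 75.3 and 73.0 FPKM in crushed libraries. The groups overlapped, since crushed library 1 lay above intact library 3. The log2 fold change of Dag1 was -0.10 (SE 0.0457, edgeR, adjusted p = 0.318).

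Each alpha chain was then set beside its beta partner as a ratio of FPKM values within a library, which does not depend on the scaling between libraries. The ratio of Itga3 to Itgb1 was 0.755, 0.671 and 0.674 in intact libraries and 0.511, 0.518 and 0.527 in crushed libraries. It was thus lower in all 3 crushed libraries than in any intact library, by 0.43 on average on the log2 scale. The ratio of Itga6 to Itgb1 was 0.297, 0.272 and 0.292 in intact and 0.208, 0.212 and 0.219 in crushed libraries, again 0.742 times the intact level. For Itga7 to Itgb1 the ratio was 0.0419 ± 0.00240 (SD, n = 3) in intact and 0.0357 ± 0.000905 in crushed libraries, also without overlap. The FPKM of Itga7 itself overlapped between the groups, whereas that of Itgb1 was higher in all 3 crushed libraries. The ratio of Itga6 to Itgb4, in contrast, was 6.86, 7.87 and 8.57 in intact and 7.20, 7.79 and 7.23 in crushed libraries, and the crushed values lay inside the intact range.

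Among the collagen-binding chains the log2 ratio to Itgb1 was higher by 0.97 for Itga2 and lower by 0.53 for Itga11 in crushed libraries, in both cases without overlap. For Itga1 the difference was 0.11 and for Itga10 -1.29, with overlapping groups. Of the 8 pairs of chains, 5 were separate between the groups, each with an exact permutation p of 0.1 (two-sided), which is the smallest p that 3 against 3 libraries allow, so that none of the 8 could pass a limit of 0.05. Since the ratios to Itgb1 share their denominator, they are not independent of each other. That denominator was itself separate between the groups, so an alpha chain whose own level overlapped, such as Itga7, could have a separate ratio. The share of all genes with a separate ratio to Itgb1 was not computed.

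Summed over the 7 alpha chains, FPKM was 465.1, 463.2 and 464.4 in intact libraries and 394.8, 395.6 and 399.9 in crushed libraries. Set against Itgb1, this sum was 1.1, 0.985 and 1.01 times the beta chain in intact and 0.759, 0.768 and 0.786 times in crushed libraries, so that the crushed values were all lower (exact permutation test, two-sided, p = 0.1). Itga3 made up 67.8% ± 1.01 (SD, n = 3) of the sum in intact and 67.3% ± 0.193 in crushed libraries, and Itga6 27.8% ± 1.0 and 27.6% ± 0.200. The shares of both overlapped between the groups, as did those of Itga10 and Itga11. That of Itga7 was 4.06% ± 0.0201 in intact and 4.63% ± 0.150 in crushed libraries, without overlap. The shares of Itga1 (0.219% ± 0.0187 and 0.317% ± 0.0093) and Itga2 (0.0471% ± 0.00928 and 0.124% ± 0.0233) were also higher without overlap. The FPKM of Itga7 itself overlapped between the groups, whereas the sum that its share is taken from was lower in every crushed library. The 3 laminin-binding chains summed to at least 392.8 FPKM in every library and the 4 collagen-binding chains to at most 2.18 FPKM. Other alpha chains also pair with Itgb1, and the sum leaves them out.

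**Figure D3:**
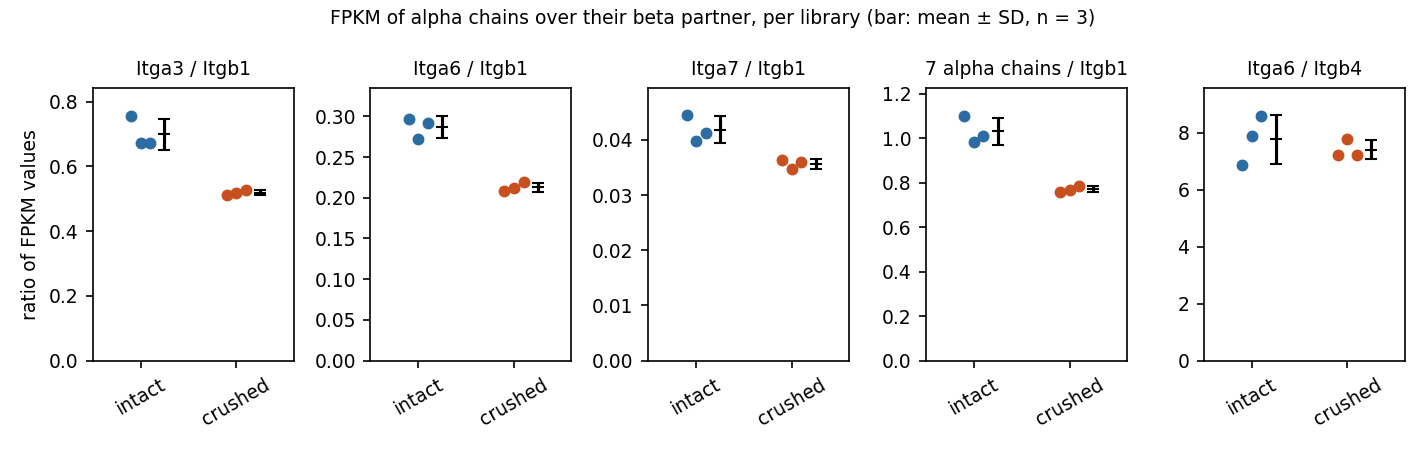
FPKM of Itga3, Itga6, Itga7 and the sum of 7 alpha chains over Itgb1, and of Itga6 over Itgb4, in each intact (blue) and crushed (orange) library, with the mean and SD beside the points (n = 3) and each axis from 0. The 4 ratios to Itgb1 are lower in all 3 crushed libraries, whereas the crushed Itga6 to Itgb4 ratios, 7.20 to 7.79, lie inside the intact range of 6.86 to 8.57.

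Itga2 and Itga1 encode the α2 and α1 chains of the main collagen receptors α2β1 and α1β1 and are neighbours on chromosome 2, with 30257 bases between them in the table. Itga2 (ENSRNOG00000058111, from 47000323 to 47096961) had 26, 22 and 17 counts in intact libraries 1, 2 and 3 and 55, 40 and 54 counts in crushed libraries 1, 2 and 3, or 0.849 ± 0.171 and 1.88 ± 0.360 normalized CPM (counts scaled to an equal library size, SD, n = 3). The lowest crushed library, number 2, was above the highest intact library, number 1. The log2 fold change of Itga2 was 1.14 (SE 0.239, unadjusted p = 0.000634, edgeR, adjusted p = 0.0290). The adjusted p rose to 0.0894 without intact library 2, 0.0868 without intact library 3, 0.122 without crushed library 1 and 0.124 without crushed library 3, with log2 fold changes of 1.13, 1.01, 1.08 and 1.03, and in none of these 4 fits did Itga2 pass the study's limits. With limma on log2(FPKM + 0.1) its log2 fold change was 0.89 (adjusted p = 0.0708), which passed neither limit. In the table the small RNA gene SNORA44 lies within Itga2, with at most 1 count.

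Itga1 (ENSRNOG00000053550, from 47127219 to 47281421) had 119, 110 and 98 counts in intact and 137, 142 and 135 counts in crushed libraries. The groups were separate, and the log2 fold change of 0.28 had an SE of 0.119 (unadjusted p = 0.0369, edgeR, adjusted p = 0.272). The gene Pelo, which encodes a factor that rescues stalled ribosomes, lies wholly within Itga1 in the table and had between 1083 and 1196 counts per library, many more than Itga1 itself. The log2 fold change of Pelo was 0.01 (SE 0.0555). Without the rule of counting, reads of Pelo within the Itga1 counts cannot be told apart from those of Itga1.

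Itga11 (ENSRNOG00000006723, chromosome 8 from 67615635 to 67683973), the α11 chain of fibroblasts that binds fibrillar collagen, had 36, 34 and 40 counts in intact and 29, 31 and 29 counts in crushed libraries. The groups did not overlap, yet its log2 fold change of -0.36 (SE 0.200) gave an adjusted p of 0.410 in edgeR. Itga10 (ENSRNOG00000021217, chromosome 2 from 198772937 to 198792253), the α10 chain of cartilage, was too low for the filter, with 6, 8 and 12 counts in intact and 4, 2 and 8 counts in crushed libraries. Its groups overlapped, and crushed library 2 lay under the floor of 3 counts. In edgeR without the filter its estimate was -0.93 ± 0.567 (log2 fold change and SE, adjusted p = 0.555), which did not pass the limit.

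The start regions of Itga2, its neighbour Itga1, Itga3 and Itgb1 are given below. These genes held the largest rise, the adjoining collagen receptor, the fall with the smallest p and the shared partner chain. Sequences are those of RefSeq on GRCr8, from 250 bases before to 50 bases after the gene start, written 5′ to 3′ on the strand of the gene. They were matched by symbol for 6 of the 10 genes (Itga1, Itga2, Itga3, Itga10, Itga11 and Itgb1), and their coordinates belong to GRCr8 and not to the build of the table. Capitals mark GC boxes (GGGCGG, the core of Sp1 sites) and CCAAT boxes (CCAAT), on either strand.
Itga2, chr2:48354460-48354759, minus strand: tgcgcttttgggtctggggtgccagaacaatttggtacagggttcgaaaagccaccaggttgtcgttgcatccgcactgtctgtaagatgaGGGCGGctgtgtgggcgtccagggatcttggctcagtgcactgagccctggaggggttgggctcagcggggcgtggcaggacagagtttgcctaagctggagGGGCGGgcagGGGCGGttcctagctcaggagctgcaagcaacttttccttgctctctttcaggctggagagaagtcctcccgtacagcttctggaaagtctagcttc
Itga1, chr2:48545234-48545533, minus strand: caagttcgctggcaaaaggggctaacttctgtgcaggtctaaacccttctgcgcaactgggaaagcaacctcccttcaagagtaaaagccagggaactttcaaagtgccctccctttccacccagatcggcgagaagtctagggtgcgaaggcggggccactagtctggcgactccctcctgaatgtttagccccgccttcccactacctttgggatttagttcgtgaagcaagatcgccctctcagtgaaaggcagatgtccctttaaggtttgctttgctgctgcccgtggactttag
Itga3, chr10:80518852-80519151, minus strand: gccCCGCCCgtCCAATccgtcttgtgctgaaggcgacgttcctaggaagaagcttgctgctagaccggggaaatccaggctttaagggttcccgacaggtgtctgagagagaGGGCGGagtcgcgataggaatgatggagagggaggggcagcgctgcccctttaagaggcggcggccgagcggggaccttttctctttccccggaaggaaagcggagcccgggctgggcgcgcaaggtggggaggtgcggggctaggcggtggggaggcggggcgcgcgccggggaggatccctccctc
Itgb1, chr19:73602027-73602326, plus strand: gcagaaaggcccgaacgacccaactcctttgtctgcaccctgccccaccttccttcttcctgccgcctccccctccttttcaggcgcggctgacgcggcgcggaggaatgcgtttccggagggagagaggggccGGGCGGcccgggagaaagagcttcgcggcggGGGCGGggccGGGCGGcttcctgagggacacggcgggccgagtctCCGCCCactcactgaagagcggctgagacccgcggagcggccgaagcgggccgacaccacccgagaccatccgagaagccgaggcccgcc

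A GC box stood 3 times in the window of Itga2, 2 times in that of Itga3 and 4 times in that of Itgb1, and was absent from that of Itga1. Of all 33469 windows of this length, 33.1% held at least 1 GC box. The window of Itga3 held 1 CCAAT box, as did 37.5% of all windows at least once. The AP-1 motif (TGANTCA, 7.33% of all windows), the TATA box (TATAAA, 14.2%) and the 10-base NF-κB consensus (4.18%) were found in none of the 6 windows on either strand, which says only that these letters are not there. GC content was 58.7% for Itga2, 53.7% for Itga1, 67.0% for Itga3 and 71.7% for Itgb1, against a median of 51.7% over all windows.

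Genes that work with these receptors were read from the same test in 4 lists, shown in the plot of gene lists. The few list members past the adjusted limit were mostly lower in crushed libraries. Of all genes tested, 205 were lower and 182 higher at that limit. With limma on log2(FPKM + 0.1) only Vcl of the adhesion linkers and Itgb5 of the other integrins stayed past it. Of 31 adhesion linkers tested, proteins that join integrin tails to actin or signal from them, 3 fell (1.65% of all genes tested fell), and the list median log2 fold change was -0.0484. Vcl, which encodes vinculin, fell from 219.6 ± 8.49 to 184.2 ± 1.78 FPKM (SD, n = 3 each), a log2 fold change of -0.27 (edgeR, adjusted p = 0.00245). Tns2, for a tensin that binds integrin tails, fell by 0.31 on the log2 scale (adjusted p = 0.0290) and Actn4, for the actin crosslinker α-actinin 4, by 0.21 (adjusted p = 0.0459). Vcl was the only gene of this list past the limit without intact library 2 and without any 1 of the 3 crushed libraries. Cd151, for the tetraspanin that partners with α3β1 and α6β1, was at 0 counts in all 6 libraries.

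Of 23 genes of the dystroglycan complex tested, which hold dystrophin and its relatives and the enzymes that put laminin-binding sugars on dystroglycan, 1 fell (against 1.65% of all genes tested) and the list median was -0.101. This was Dmd, the dystrophin gene, with 0.250 ± 0.0376 FPKM in intact and 0.148 ± 0.0233 FPKM in crushed libraries (SD, n = 3 each) and a log2 fold change of -0.77 (adjusted p = 0.0397). Dmd was past the limit in none of the 6 fits that left out 1 library, and Dtnb, for a dystrobrevin, was past it without crushed library 3 (adjusted p = 0.0485). Dtnb (-0.22, adjusted p = 0.0665) and Prx, for periaxin of myelinating Schwann cells (-0.20, adjusted p = 0.166), had log2 fold changes of the same sign in the fit over 6 libraries.

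Of 12 other matrix receptors and partners tested, 1 rose (against 1.47% of all genes tested) and 1 fell (against 1.65%), with a list median of -0.0316. Mrc2, for a collagen uptake receptor, fell by 0.23 on the log2 scale (adjusted p = 0.0188), and Cd47, for a membrane partner of integrins, rose by 0.33 (adjusted p = 0.0294), whereas the syndecan gene Sdc2 was at -0.24 (adjusted p = 0.0630, all in edgeR). Without intact library 2 or without crushed library 2 the count was 1 gene, Cd47. No gene of the list passed without crushed library 1 or without crushed library 3, while DESeq2 gave 3 genes over all 6 libraries. Of all genes tested, 179 passed without crushed library 1, 211 without crushed library 3 and 511 with DESeq2. In the edgeR fit over all 6 libraries 387 passed. An unadjusted p under 0.05 (edgeR) was reached by 6 genes of the list without crushed library 1 and by 4 without crushed library 3. Over all 6 libraries 4 of the 12 genes reached it, against 2009 of all 12393 genes tested. Without intact library 1 the count past the adjusted limit was 3, with the collagen receptor gene Ddr2 (-0.22, adjusted p = 0.0465) added, and without intact library 3 it was 2, Sdc2 (-0.29, adjusted p = 0.0183) and Mrc2.

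Of 9 other integrins tested, 1 fell (against 1.65% of all genes tested), and the list median was 0.0110. Itgb5, which encodes the β5 chain of the vitronectin receptor αvβ5, had 24.3, 26.3 and 26.2 FPKM in intact and 18.9, 18.0 and 17.3 FPKM in crushed libraries, a log2 fold change of -0.52 (SE 0.0494, edgeR, adjusted p = 0.000176). Its partner Itgav was at 80.7 ± 0.776 FPKM in intact and 85.1 ± 1.85 FPKM in crushed libraries (SD, n = 3 each), a log2 fold change of 0.06 (adjusted p = 0.469), and Itgb8, a further partner, was at -0.47 (adjusted p = 0.511).

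**Figure D4:**
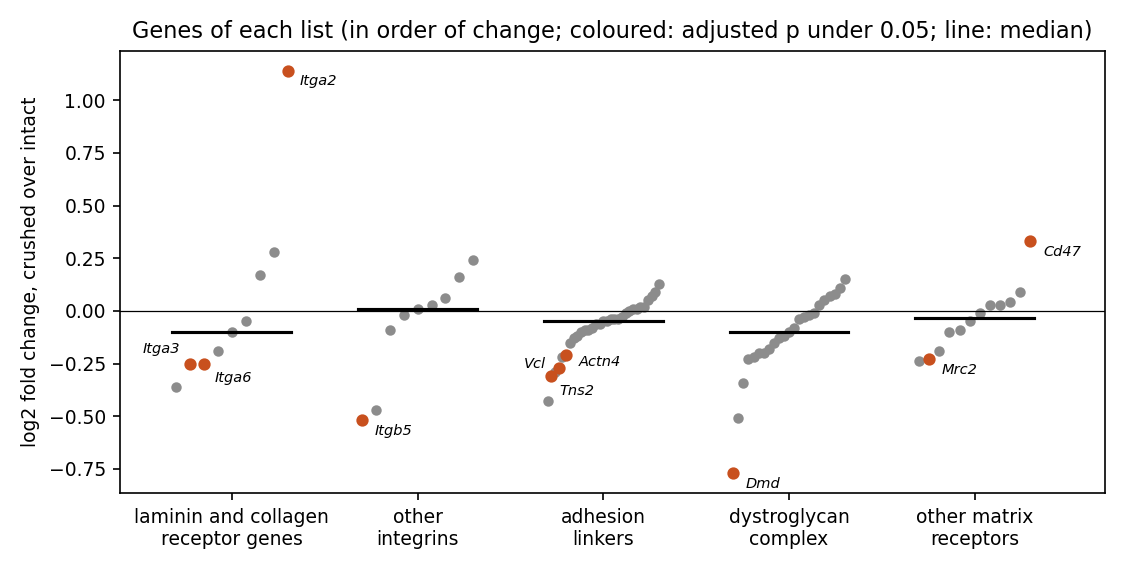
Log2 fold change (crushed over intact, edgeR) of each gene tested in 5 lists, in order of change within a list, coloured and named where the adjusted p was under 0.05, with a line at the list median. Itga2 lies highest at 1.14 and Dmd lowest at -0.77.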

How the data were processed

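RNA-seq was available for 6 rat sciatic nerve libraries, 3 crushed and 3 intact by their labels. The authors deposited a count of reads per Ensembl gene, not normalized, and FPKM values scaled to the library's counted reads. FPKM was computed per kilobase of a length assigned to the gene, which for Itga3 was shorter than its span in the coordinates. The submitters' processing notes name HISAT2, StringTie 1.3.0 and the build Rnor_6.0. The counting rule and annotation release are not given in the sources used here. The 12 value columns were matched to libraries by title. Differences were tested from the counts by the quasi-likelihood test of edgeR (version 4.0.16 in R 4.3.3) with TMM factors and its expression filter, with p-values adjusted over all 12393 genes tested (Benjamini-Hochberg). The standard error came from the test statistic. Levels between genes were compared in FPKM. Total counts lay between 24844371 and 27139360 per library, and the floor of 3 counts, between 0.110 and 0.121 normalized CPM, covers counting error only. The test was checked on simulated data in which 200 genes, drawn at random from all genes tested, were given changes. These changes were well above the study's fold limit and larger than that of Itga2, and 198 of the 200 genes were called at the study's limits. This check did not cover changes close to the fold limit at counts as low as those of Itga2. It also did not cover changes as small as those of Itga3 and Itga6, or calls at the adjusted limit. Replicate pairs differed by more than sampling noise (chi-square per degree of freedom 3.38 to 12.3). Alternatives were a replicate block, DESeq2 1.42.0, RLE factors, no filter, limma 3.58.1 on log2(FPKM + 0.1) and each library left out. Named genes were the 10 receptor genes, of each list those past the study's limits or else the 3 with the smallest p, and the 3 genes most like Itga2. The genes Ddr2, Itga5, Pdgfrb and the overlapping, marker and leukocyte genes were added after values were seen. The receptor genes, lists and cell type markers were chosen with earlier results of these data known.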

Additional observations from a re-analysis of the deposited data

How the results depend on the processing

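Over 11 other fits the 9 receptor genes tested kept the sign of their log2 fold change, and Itga3 and Itga6 kept an adjusted p under 0.05 in all 11. The number of receptor genes with an adjusted p under 0.05 lay between 2 and 4 against 3, with Itga2 lost in 6 fits and Itgb1 added in 5. The number past the study's limits was 1. It was 0 with the replicate block and 0 with limma on log2(FPKM + 0.1), where 6 of 9 genes had an unadjusted p under 0.05 in both fits, and from 0 to 1 with 1 library left out. In the edgeR fit over all 6 libraries without a block, 2009 of all 12393 genes tested had an unadjusted p under 0.05. The unadjusted counts given here for receptor genes and lists have no such all-gene number for their own fits. In the replicate block the log2 fold change of Itga2 was 1.13 at an adjusted p of 0.0519, and over all genes the block gave 300 genes at the adjusted limit against 387. Same-numbered libraries did not deviate together (correlations -0.0106, -0.000989 and 0.0720), and not every library correlated best with its own number. The adhesion linkers past the limit numbered 3, but 1 with limma and 1 to 3 with 1 library left out. Those of the dystroglycan complex numbered 1, but 0 with the replicate block (8 of 23 at an unadjusted p under 0.05), 0 with limma (7 of 23), 2 with DESeq2 and 0 to 1 with 1 library left out. Those of the other matrix receptors numbered 2, but 1 with the replicate block, 0 with limma (5 of 12 at an unadjusted p under 0.05) and 0 to 3 with 1 library left out. Over all genes, 242 passed with limma, 511 with DESeq2 and from 179 to 392 with 1 library left out. The log2 differences of the 8 ratios moved by less than the pooled SD of the groups under every alternative. With 3 libraries per group, however, leaving 1 out cannot move a difference by as much as that SD. The replicate block leaves the difference of means as it is. Only the addition of 0.1 FPKM to both chains could thus have moved a ratio further. For Itga10 over Itgb1 the difference was -1.29, but -0.50 with 0.1 FPKM added to both chains and -1.84 to -0.77 with 1 library left out. For Itga1 over Itgb1 it was 0.11 (0.05 to 0.23), and for Itga6 over Itgb4 -0.06 (-0.15 to 0.01, above 0 without intact library 3). For each shift named here, the cause was not tested. Counts were low for Itga10 and Itga2, at most 12 and 55 in any library.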

Other observations

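Over the 6 libraries, the 3 genes whose log2 normalized CPM followed that of Itga2 most closely, of 12388 compared, were Parp10 (Pearson r = 0.9940, log2 fold change 0.18), the MHC class I gene RT1-CE2 (r = 0.9939, 0.21), whose reads could be split between similar RT1 genes, and Med24 (r = 0.9875, 0.27). These are descriptions over 6 points that share the difference between the groups, and the changes of all 3 were smaller than that of Itga2. The adjusted p was 0.0697 for Parp10, 0.199 for RT1-CE2 and 0.0165 for Med24 from edgeR's quasi-likelihood test.

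Integrin chains of leukocytes differed in level. Itgal had 0 counts throughout, Itgb2 between 0 and 3 counts and Itgam between 1 and 8 counts, whereas Itgae (0.617 to 0.774 FPKM) and Itgax (0.268 to 0.533 FPKM) passed the expression filter, both with overlapping groups. The α4 chain gene Itga4, the α9 chain gene Itga9 and the β3 chain gene Itgb3 had at most 1, 1 and 2 counts. The fibronectin receptor gene Itga5 was at 23.8 ± 1.19 FPKM in intact and 24.3 ± 0.347 FPKM in crushed libraries (SD, n = 3 each), with overlapping groups.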
